A study of Mus musculus with 68 samples.

Results

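The genes described here are 10 classically imprinted mouse genes that are known for expression from the copy inherited from the father: Peg3, Snrpn, Mcts2, Peg10, Mest, Plagl1, Zrsr1, Impact, Igf2 and Dlk1. They were taken by name from 8 tables of FPKM (fragments scaled by transcript length and by the library's mapped fragments) that list 24941 gene names in all. Of the 10, 9 are in all 8 tables, and Dlk1 is in 5 of them, not in those of the 1-cell, late 2-cell and 8-cell stages.

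A classically imprinted gene carries DNA methylation on the copy from 1 parent at a control region, laid down in the germ line and kept through the wave of demethylation that follows fertilisation. For most of these genes the oocyte's copy is the methylated and silent one. Igf2 and Dlk1 are under control regions methylated in sperm. A smaller set of genes, among them Sfmbt2 and Gab1, is silenced on the maternal copy through histone H3 lysine 27 trimethylation (H3K27me3) from the oocyte. FPKM sums both copies, so parental origin was not measured here.

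The series deleted Ezhip on the X chromosome, which encodes an inhibitor of the H3K27me3-writing complex PRC2, and compared genotypes by Smart-seq2, a full-length RNA-seq method for few cells. Fully grown oocytes (labelled FGO) had 2 wild-type (WT), 2 Ezhip Het and 3 Ezhip KO libraries. Embryos were labelled WT, Ezhip mHet or Ezhip mKO. There were 2 libraries of each genotype at the 1-cell stage (PN5), the late 2-cell stage, in the first E3.5 table, and in the epiblast and the extraembryonic ectoderm of E6.5 embryos. The second E3.5 table had 5 of each, the 8-cell stage 2 WT, 1 mHet and 3 mKO, and E4.25 4 WT and 4 mKO. At E4.25 both mHet columns agreed exactly in each of 19337 genes, so they count as 1 library, and 67 libraries remain. The labels give no strain, sex, litter or number of pooled embryos, and do not say which part of Ezhip was deleted. They describe an EZH2 inhibitor protocol but assign it to none of these libraries. Separate animals are nowhere stated. Y-linked transcripts (4 genes) differed within some groups, as in WT epiblast (90.7 and 0.189 FPKM) and E4.25 mKO (0 to 51.7). Those groups thus hold material of different embryos. In other groups, p-values reflect spread among samples that may be only technical.

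The read depth of the libraries is unknown, since FPKM keep no totals. Ezhip was at 297 to 546 FPKM in WT oocytes and at most 0.175 in KO oocytes, and at E4.25 all 4 WT libraries held 0. The epiblast libraries held 0.618 and 0.772 FPKM for WT, 0.0458 and 0.0563 for mHet and 0.630 and 0 for mKO, so 1 mKO library lay at the WT level and such low values do not check the late labels. Rn45s, the ribosomal RNA precursor, took 0.209 to 6.03% of the summed FPKM up to the 8-cell stage, 2.13 to 21.0% in the first E3.5 table, 9.19 to 69.5% in the second, 11.7 to 68.6% at E4.25 and 0.341 to 11.6% at E6.5. Tissue labels at E6.5 were met by their markers: 6 extraembryonic ectoderm genes (Elf5, Cdx2, Eomes, Esrrb, Bmp4, Tfap2c) summed to 235 to 351 FPKM in extraembryonic and 7.36 to 53.9 in epiblast libraries.

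The promoter windows of 4 members are shown because these genes carry the results that follow. Snrpn, a spliceosome protein gene, has the highest level and a large tissue difference. Mcts2, a translation factor gene, gave the only genotype call. Mest, a hydrolase-fold protein gene, was abundant in oocytes. Igf2, a growth factor gene, differed most between the E6.5 tissues. Each window runs 5′ to 3′ on the gene's strand, from 250 bases before to 50 after the RefSeq start (GRCm38.p6). Capitals mark the 6-letter core of the motif read by ZFP57, a protein that keeps imprints, TGCCGC or its reverse complement GCGGCA.
Snrpn, chr7:60005150-60005449, minus strand: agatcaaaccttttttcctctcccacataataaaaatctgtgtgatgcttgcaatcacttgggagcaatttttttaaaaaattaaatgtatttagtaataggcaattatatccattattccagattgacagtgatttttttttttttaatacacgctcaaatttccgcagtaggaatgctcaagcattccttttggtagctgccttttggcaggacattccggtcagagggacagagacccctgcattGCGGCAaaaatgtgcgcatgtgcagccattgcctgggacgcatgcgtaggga
Mcts2, chr2:152686898-152687197, plus strand: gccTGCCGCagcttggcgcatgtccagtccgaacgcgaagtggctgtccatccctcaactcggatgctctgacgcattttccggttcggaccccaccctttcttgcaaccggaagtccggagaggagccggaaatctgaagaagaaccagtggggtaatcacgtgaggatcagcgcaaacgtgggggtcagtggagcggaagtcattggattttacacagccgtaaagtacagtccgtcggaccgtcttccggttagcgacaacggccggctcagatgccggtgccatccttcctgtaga
Mest, chr6:30737800-30738099, plus strand: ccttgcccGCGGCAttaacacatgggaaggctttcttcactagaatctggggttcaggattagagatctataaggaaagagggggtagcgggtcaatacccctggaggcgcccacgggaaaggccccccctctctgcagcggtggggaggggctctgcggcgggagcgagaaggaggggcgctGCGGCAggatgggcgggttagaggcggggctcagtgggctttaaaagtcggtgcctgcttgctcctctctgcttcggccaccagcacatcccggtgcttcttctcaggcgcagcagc
Igf2, chr7:142657447-142657746, minus strand: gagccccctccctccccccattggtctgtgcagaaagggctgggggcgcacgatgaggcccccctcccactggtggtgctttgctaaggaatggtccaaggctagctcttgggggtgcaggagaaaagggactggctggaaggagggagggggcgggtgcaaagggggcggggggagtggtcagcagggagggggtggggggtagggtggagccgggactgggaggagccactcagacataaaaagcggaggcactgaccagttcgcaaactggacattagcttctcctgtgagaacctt

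RefSeq windows were matched by symbol for 8 of the 10 members, 16 windows in all, since a gene with several starts has several. The motif was searched on both strands, and its 2 forms can share 2 bases. It occurs in 6 of the 16 windows, in 5 members: in the window of Mcts2 and of Plagl1, 1 of 4 for Snrpn, 2 of 3 for Mest and 1 of 4 for Igf2 (not the one printed), against 11.6% of all 32851 windows of 300 bases. The 2 Mest windows with it start 3 bases apart and are nearly the same sequence. The printed Mest window holds it at 2 places, and 1.53% of all windows hold it at 2 or more. CpG dinucleotides, the sites of DNA methylation, number 7 in the printed Snrpn window, 25 in Mcts2, 17 in Mest and 7 in Igf2, against a median of 7 and an upper quartile of 20 over all windows. Plagl1, a zinc finger gene, has 26 CpG and 1 motif. Peg3, a zinc finger gene of chromosome 7, has 13 CpG and no motif, and Zrsr1, a splicing factor gene of chromosome 11, has 10 and none. These matches describe the letters only, and no binding or methylation was measured.

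Mcts2 and Zrsr1 share a structure that did not enter their choice. Both are retrogenes, copies of an X-linked gene made through its RNA, with 1 exon in the GENCODE annotation, where the other 8 members have transcripts of 2 to 13 exons. Mcts2 lies in an intron of H13 on the same strand (2 of 3 H13 transcripts), and Zrsr1 in an intron of Commd1 on the opposite strand (1 of 2 transcripts). The longest open reading frame of Mcts2 was identical to that of Mcts1 at 85.7% of 545 aligned bases, and that of Zrsr1 to Zrsr2 at 82.9% of 1287. The sources used here do not say how reads that match both copies were treated, so their levels are less certain than the others. Likewise Snurf, read from the same transcript as Snrpn, cannot be told apart from it.

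The members fell into distinct courses over development (the plot of all 10 genes by stage). The tables were normalized separately, so differences of level between stages are descriptions without a test. FPKM are per length, so levels of different genes can be set side by side.

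**Figure D1:**
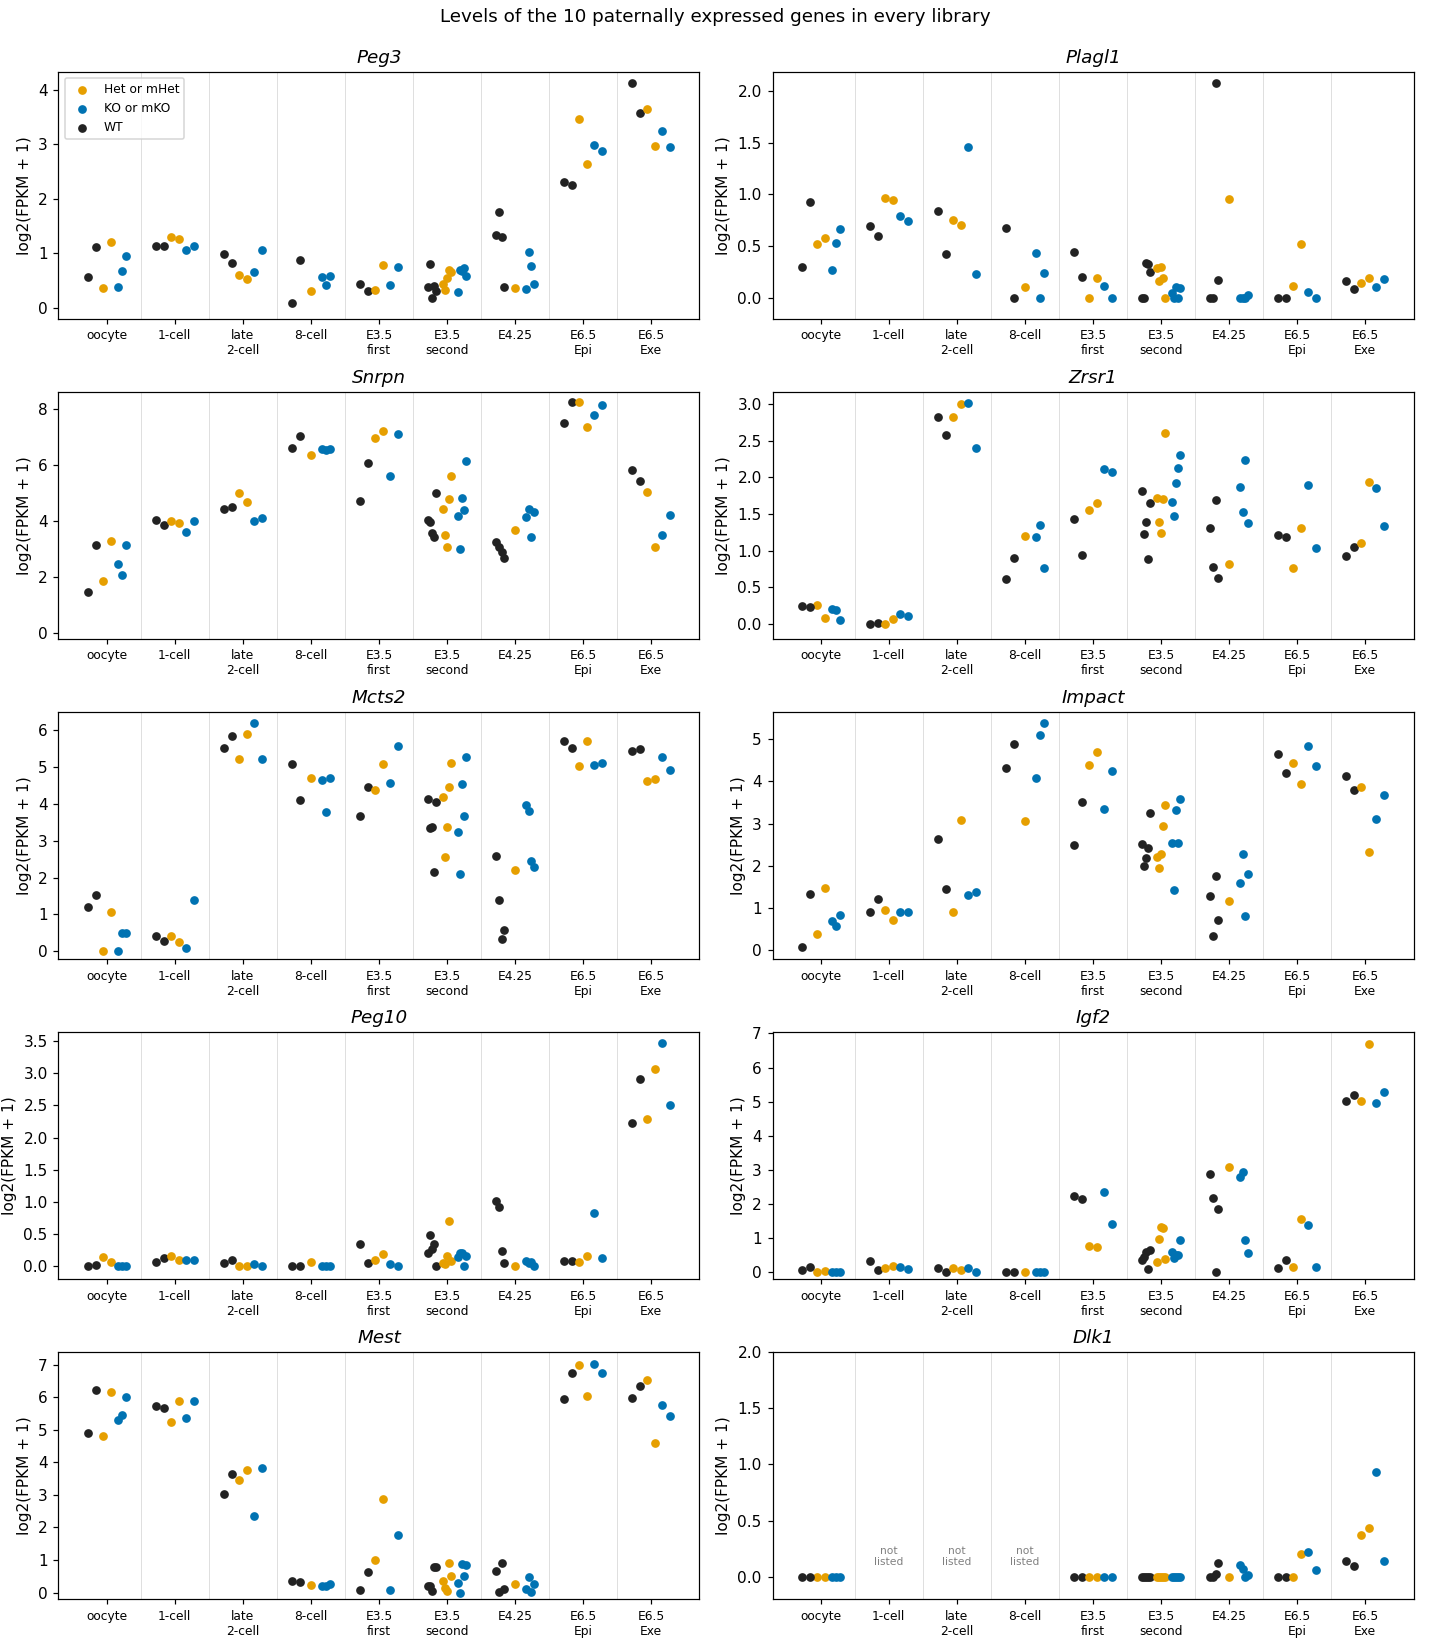
Level of each member in every library, as log2(FPKM + 1), by stage from oocyte to E6.5 (x axis), with points coloured by genotype. Mest is high in oocytes and again at E6.5, Snrpn peaks at the 8-cell stage and in the epiblast, Mcts2 appears at the late 2-cell stage, and Igf2 and Peg10 stand out in the extraembryonic ectoderm.

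Mest was the member with high RNA in oocytes. WT oocytes held 28.9 and 73.2 FPKM, Het oocytes 27.0 and 70.6, and KO oocytes 38.7, 42.8 and 63.1. The lower WT and Het values came from libraries with 7364 and 7395 genes at 1 FPKM or more and the higher from libraries with 9797 and 9801, and the genotypes overlapped. WT 1-cell embryos held 51.9 and 49.8 FPKM and WT late 2-cell embryos 7.13 and 11.5. From the 8-cell stage to E4.25 the highest WT library was at 0.857 FPKM. At E6.5 Mest returned to 60.5 and 106 in WT epiblast and 62.5 and 80.2 in WT extraembryonic ectoderm. In WT the level was thus near 0 from the 8-cell stage to E4.25 and higher on either side of that span. In the first E3.5 table mHet libraries held 1.01 and 6.39 FPKM and mKO libraries 0.0657 and 2.41.

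Snrpn had the highest level of any member. It was at 1.74 and 7.73 FPKM in WT oocytes, 15.5 and 13.3 in WT 1-cell embryos, 20.7 and 21.5 at the late 2-cell stage and 96.1 and 128 at the 8-cell stage. WT blastocysts held 25.2 and 66.1 in the first E3.5 table, and 9.60 to 31.1 with a median of 14.5 in the second. WT E4.25 embryos held 8.57, 7.34, 6.45 and 5.43. Its mean in WT epiblast, 239 FPKM ± 84.6 (SD, n = 2), was the highest WT group mean of the set. The 2 E3.5 tables carry the same stage label, and their WT ranges overlap only between 25.2 and 31.1.

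Mcts2 and Zrsr1 appeared together at the late 2-cell stage, when the mouse genome is activated. Mcts2 was at 1.29 and 1.89 FPKM in WT oocytes, 0.347 and 0.224 in WT 1-cell embryos, and 44.2 and 55.7 in WT late 2-cell embryos. Zrsr1 was at 0.189 and 0.175 in WT oocytes, 0 and 0.00835 in 1-cell embryos, and 6.09 and 4.94 at the late 2-cell stage. For both, the late 2-cell stage had the highest WT group mean. All 6 late 2-cell libraries lay above all 6 1-cell libraries for both genes, in every genotype. The host genes went the other way: the WT mean of Commd1, a trafficking protein gene, was 34.1 FPKM at the 1-cell and 1.49 at the late 2-cell stage, and that of H13, a signal peptide peptidase gene, was 17.0 and 3.16.

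Impact, a regulator of translation, was highest at the 8-cell stage, with 18.8 and 28.3 FPKM in WT. It was at most 1.54 in WT oocytes and 1.31 in WT 1-cell embryos. In the epiblast it was at 24.1 and 17.2 in WT, a mean whose spread overlaps that of the 8-cell stage.

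Igf2, Peg10 and Peg3 belonged to the later embryo. Igf2 was at 0 in all 6 8-cell libraries, at 3.70 and 3.38 FPKM in WT of the first E3.5 table, 0.066 to 0.571 with a median of 0.357 in WT of the second, and 31.2 and 35.7 in WT extraembryonic ectoderm. Peg10, derived from a retrotransposon and known for its need in the placenta, did not exceed 1.03 in any library before E6.5 and was at 3.69 and 6.52 in WT extraembryonic ectoderm. Peg3 stayed at or below 2.40 in every library up to E4.25 and was at 16.5 and 10.9 in WT extraembryonic ectoderm.

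Plagl1 and Dlk1 were barely present. Plagl1 was at 1 FPKM or more in 2 libraries, late 2-cell mKO replicate 1 (1.75) and E4.25 WT replicate 3 (3.23), from 2 different tables. Dlk1, a Notch-family ligand of later embryos, was at 0 in all oocyte and E3.5 libraries and reached 0.907 in extraembryonic mKO replicate 1. Neither passed the filter of 1 FPKM in at least 2 libraries of a table, so neither entered the filtered fits, and neither passed where an alternative setting included it.

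As a description of likeness, the WT group means, as log2(FPKM + 1), of the 8 members that reached 5 FPKM were correlated over the 9 stage and tissue groups with 8843 genes that all tables list and that reached 5 FPKM in a group. The groups come from separately normalized tables, and no test is given. Snrpn was most like Snurf (Pearson r = 0.999), Mcts2 like AK010878 (0.991), Mest like Txnrd1 (0.984), and Peg10 like Ascl2 (0.979), itself an imprinted gene needed in the trophoblast. Peg3 was most like Wdr54 (0.978), Impact like Dnajc24 (0.978), Zrsr1 like Eid2 (0.961) and Igf2 like Polg (0.956), with Sfmbt2 next (0.943).

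The comparison that changed most members was that of the E6.5 tissues, which lie in 1 table. Of 8 members kept, 3 were higher and 2 lower in extraembryonic ectoderm than in epiblast (limma on log2(FPKM + 1), mean over the 3 genotypes, adjusted p under 0.05 over all genes kept). The background is wide, as 33.5% of the 11028 genes kept passed, 1563 higher and 2136 lower, with a median log2 difference of -0.11 against -0.07 for the members. The epiblast and extraembryonic libraries may come from the same embryos, and the columns do not let them be paired.

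Igf2 was at 0.0984 and 0.278 FPKM in WT epiblast and 31.2 and 35.7 in WT extraembryonic ectoderm. In mHet the values were 0.112 and 1.95 against 31.6 and 103, and in mKO 1.62 and 0.121 against 30.4 and 38.0. Every extraembryonic library exceeded every epiblast library (log2 difference 4.74, SE 0.34, limma adjusted p = 8.51e-07). Peg10 was at 0.0606 and 0.0534 FPKM in WT epiblast, 0.0401 and 0.120 in mHet and 0.772 and 0.0948 in mKO. Its extraembryonic libraries held 3.69 and 6.52 for WT, 3.88 and 7.41 for mHet and 10.0 and 4.67 for mKO, so the tissues did not overlap (log2 difference 2.52, SE 0.23, limma adjusted p = 4.7e-06). Every epiblast library of Peg10 was below 1 FPKM, so it met the filter through its extraembryonic libraries alone. Its place among the members higher there is thus not independent of the filter, though it also passed without the filter.

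Snrpn went the other way. Its epiblast libraries held 179 and 299 FPKM for WT, 303 and 160 for mHet and 216 and 280 in mKO. The extraembryonic libraries held 54.6 and 41.7 for WT, 31.7 and 7.38 for mHet and 10.3 and 17.5 in mKO. The lowest epiblast library was above the highest extraembryonic one (log2 difference -3.36, SE 0.34, limma adjusted p = 9.99e-06).

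Peg3 and Impact passed with smaller differences. Peg3 was higher in extraembryonic ectoderm by 0.67 (SE 0.22, limma adjusted p = 0.0322), and its tissues overlapped, as extraembryonic mKO replicate 2 held 6.78 FPKM and 1 epiblast mHet library 10.0. In WT alone, where the tissues did not overlap, the Peg3 difference was 1.58 (SE 0.25, limma adjusted p = 0.00454), while the mKO libraries held 8.56 and 6.78 FPKM in extraembryonic ectoderm against 6.99 and 6.41 in epiblast. Impact differed by -0.92 (SE 0.28, limma adjusted p = 0.0227), with 4.02 to 16.4 FPKM there against an overlapping 14.2 to 27.3 in epiblast. Peg3 no longer passed without epiblast WT A or B, mHet B or mKO A or B, or extraembryonic WT 1 or mKO 1 (limma adjusted p = 0.0602 to 0.104). Impact no longer passed without epiblast WT A, mHet A or mKO A, or extraembryonic WT 2 or mKO 1 (0.0649 to 0.0715), and stood at -0.46 in WT alone and -0.39 once Rn45s level entered as a term. Mest (-0.81, SE 0.33, adjusted p = 0.0792), Mcts2 (-0.27, SE 0.20, adjusted p = 0.322) and Zrsr1 (0.13, SE 0.21, adjusted p = 0.675) did not pass the limma test.

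**Figure D2:**
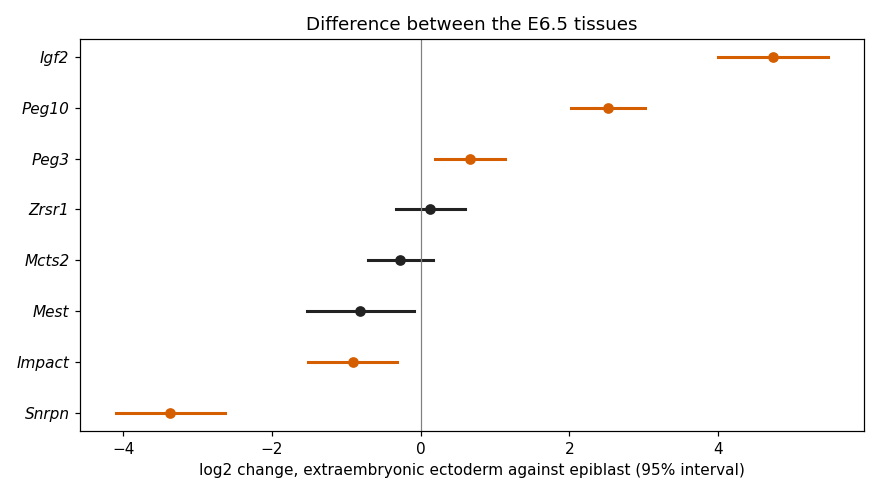
Log2 difference between extraembryonic ectoderm and epiblast (x axis, 95% interval of the limma fit) for the 8 members kept, with members past an adjusted p of 0.05 in orange. Igf2 at 4.74 and Peg10 at 2.52 lie far to the right and Snrpn at -3.36 far to the left, while Mcts2 and Zrsr1 lie near 0.

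Other imprinted genes of the same table were also divided by tissue. Of 10 further paternally expressed genes kept, 3 were higher and 5 lower in extraembryonic ectoderm. Those with the smallest p were lower: Ndn, a neighbour of Snrpn on its domain (-2.99), Nnat, a small membrane protein gene (-2.88), Snurf (-3.41) and Zdbf2 (-1.37). Sgce, the neighbour of Peg10, was higher (1.17, SE 0.26, limma adjusted p = 0.00444). The Snrpn and Peg10 domains did not move as a whole. Peg12, in the Snrpn domain, was higher (1.00). Calcr (-1.13) and Asb4 (-0.61), in the Peg10 domain, were lower. Of 22 maternally expressed or partner genes, 8 were higher and 6 lower. Phlda2, a restraint on placental growth, stood at 3.81 and Cdkn1c, a cell cycle inhibitor, at 2.44. H19, the maternally expressed RNA beside Igf2, stood at 5.87, and Ascl2 at 2.50. All 5 kept genes of the H3K27me3-imprinted list were higher, led by Sfmbt2 (4.06) and Gab1 (3.40).

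Of 9 kept genes of the Igf2 pathway, 2 were higher and 5 lower in extraembryonic ectoderm. The lower ones included the binding proteins Igfbp2 (-4.39), Igfbp4 (-1.41) and Igfbp3 (-1.59) and the receptor gene Igf1r (-0.96), while Igf2r, whose product clears Igf2, was higher (1.07, SE 0.21, limma adjusted p = 0.00171). Of 11 imprint maintenance and DNA methylation genes, 2 were higher and 5 lower. The de novo methyltransferase genes Dnmt3a (-4.11) and Dnmt3b (-2.40) and the imprint protector Dppa3 (-2.16) were lower, while their cofactor Dnmt3l was higher (1.37). Zfp57, named because its motif was searched and, like Igf2r, chosen after its values were seen, was higher by 0.63 (SE 0.22, limma adjusted p = 0.0419). Of 4 parent or similar genes of the members, 2 were lower, Snrpb (-0.87) and Plagl2 (-0.75).

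In the same tissues, no member was called between genotypes. In epiblast 0.00907% of the genes kept passed for mKO against WT, 0.0272% for mHet against WT and 0% for mKO against mHet. In extraembryonic ectoderm the shares were 0%, 0% and 0.00907%, and for the tissue difference in the mKO effect 0%. At an unadjusted p under 0.05, 1 of 8 members kept stood apart in extraembryonic mKO (limma), namely Snrpn, and 2 of 8 in mHet, namely Snrpn and Mcts2. Over all genes the share at that p was 7.74% in mKO and 5.89% in mHet.

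**Figure D3:**
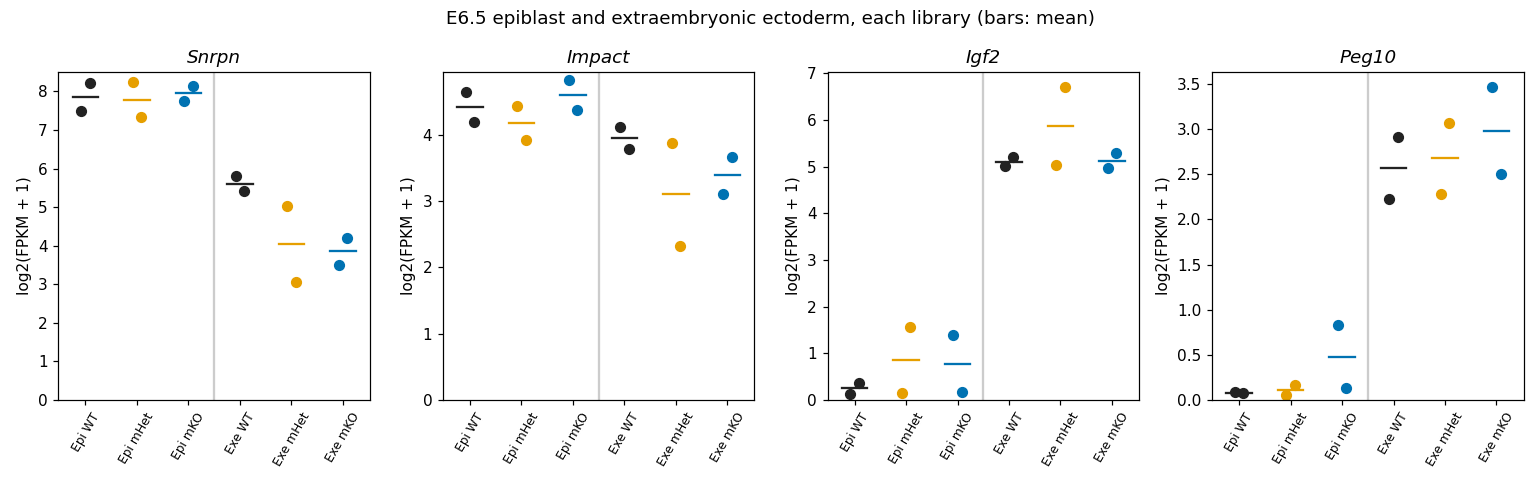
Level of Snrpn, Impact, Igf2 and Peg10 in each E6.5 library, as log2(FPKM + 1), by tissue and genotype (x axis), with bars at group means. In extraembryonic ectoderm the WT libraries of Snrpn (54.6 and 41.7 FPKM) lie above all mHet and mKO libraries (at most 31.7).

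For Snrpn, the 4 mutant extraembryonic libraries lay below both WT libraries. The log2 change was -1.76 for mKO (SE 0.59, 95% interval -3.03 to -0.48, limma adjusted p = 0.521) and -1.56 for mHet (SE 0.59, limma adjusted p = 0.677), and neither passed over all genes, whose medians were -0.19 and -0.20. Without mHet replicate 1, which leaves 1 mHet library, Snrpn (-2.54, adjusted p = 0.00447), Mest (-1.58, adjusted p = 0.0223) and Impact (-1.63, adjusted p = 0.0123) passed the limma test for mHet, among 2614 genes in all. The mHet library then left is the one with 11.6% Rn45s. Without that library instead, Snrpn stood at -0.58, Impact at -0.08 and Mest at 0.38, with its sign turned, and none passed (limma adjusted p = 1 for each). Snurf, from the same transcript, stood at -1.93 and -1.59. In epiblast the Snrpn change was 0.09 in mKO (SE 0.59), and the difference between tissues was -1.84 (SE 0.83, 95% interval -3.65 to -0.04, limma adjusted p = 0.972), which did not pass. Rn45s took 1.84 and 2.43% of the FPKM in the WT, 1.46 and 11.6% in the mHet and 8.11 and 3.32% in the mKO extraembryonic libraries. Markers of ectoplacental cone and giant cells, 6 genes, summed to 37.7 to 53.0 FPKM in WT, 54.9 to 73.1 in mHet and 71.3 to 122 in mKO, with Tpbpa and Prl3b1 at 0 in every extraembryonic library and Prl3d1 and Prl2c2 at 0 in every mHet and mKO one. The mutant sums are thus Ascl2 and Hand1 alone, and Hand1, also a mesoderm marker, was at 23.8 to 28.9 FPKM in WT, 46.9 to 52.1 in mHet and 65.3 to 109 in mKO. Visceral endoderm markers, 9 genes, summed to 31.9 in mKO replicate 2 and to at most 6.07 in the other extraembryonic libraries. The part of these in the Snrpn values was not tested, and in bulk samples fewer cells of a type cannot be told from less RNA per cell.

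Peg3 and Mest differed between mKO and WT with opposite signs in the tissues, without passing a test. Peg3 was at 3.94 and 3.77 FPKM in WT against 6.99 and 6.41 in mKO epiblast, and at 16.5 and 10.9 against 8.56 and 6.78 in extraembryonic ectoderm. The groups did not overlap in either tissue (0.66 and -0.75, limma adjusted p = 1 and 0.659, difference -1.41, adjusted p = 0.972). Mest stood at 60.5 and 106 against 130 and 107 FPKM in epiblast and 62.5 and 80.2 against 53.0 and 41.9 in extraembryonic ectoderm. For both genes the mKO mean was higher in epiblast and lower in extraembryonic ectoderm, and the 95% interval within each tissue includes 0. The unadjusted 95% interval of the tissue difference in the mKO effect was -2.57 to -0.25 for Peg3, which excludes 0, and -2.90 to 0.63 for Mest. At an unadjusted p under 0.05 (limma), 3.41% of all genes kept stood apart in this comparison, and Peg3 did not pass after adjustment.

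Igf2 differed by 0.03 in mKO extraembryonic ectoderm (SE 0.59, 95% interval -1.25 to 1.30, limma adjusted p = 0.998). The library mHet replicate 2 had the highest Igf2 of that tissue (103 FPKM) and its lowest Snrpn (7.38), Impact (4.02) and Mest (23.0), beside its highest Rn45s share (11.6%). Mcts2 was at 42.3 and 43.9 FPKM for WT, 23.5 and 24.4 for mHet and 37.3 and 29.1 in mKO, so WT was above both without a call (mHet -0.82, SE 0.34, limma adjusted p = 0.677).

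Among all comparisons of genotypes, 1 member in 1 comparison passed: Mcts2 at E4.25. WT embryos held 4.96, 1.64, 0.252 and 0.499 FPKM, the mHet library 3.64, and mKO embryos 14.6, 13.0, 4.48 and 3.92. The groups overlap by 1 WT library, replicate 1 (log2 change 1.91, SE 0.56, 95% interval 0.72 to 3.10, limma adjusted p = 0.0351). The background of this comparison is 14.6% of 9550 genes, 1370 higher and 24 lower, and the median gene was higher by 0.74. Rn45s took 21.0 to 68.6% of the FPKM in WT and 11.7 to 52.4% in mKO. With median ratio scaling the median gene stood at 0.06, Mcts2 at 1.26 (adjusted p = 0.239), and 30 genes passed. The call also ended with a pseudocount of 0.1, without the filter and with Rn45s removed (limma adjusted p = 0.0561, 0.143 and 0.0736). It ended too when WT 2, 3 or 4 or mKO 1, 2 or 4 was omitted (0.0594 to 0.105). The call held in 7 of 17 alternatives, among them the replicate block, the 2 groups alone, and terms for library order, sex and Rn45s level. The Rn45s term was chosen after seeing the data.

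**Figure D4:**
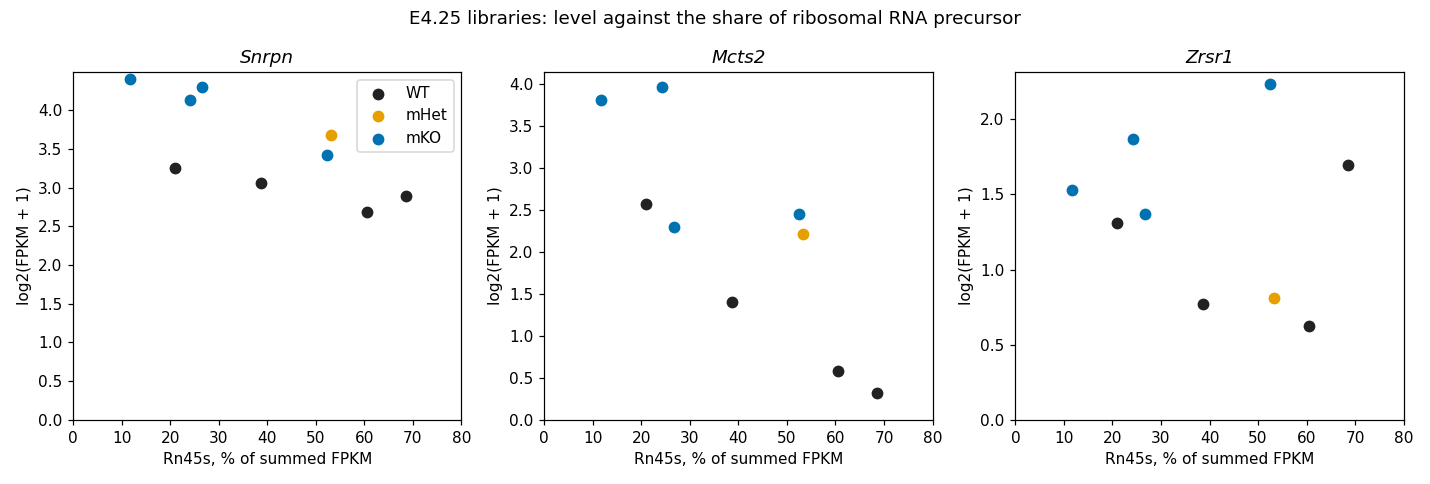
E4.25 libraries by the share of Rn45s in the summed FPKM (x axis, percent) and the level of Snrpn, Mcts2 and Zrsr1 as log2(FPKM + 1), coloured by genotype. WT libraries of Mcts2 fall from 4.96 FPKM at 21.0% Rn45s to 0.252 at 68.6%.

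Snrpn at E4.25 was higher in each mKO library (16.5, 20.2, 9.74 and 18.7 FPKM) than in any WT library (at most 8.57). The change of 1.09 (SE 0.51, 95% interval 0.00 to 2.18) did not pass (limma adjusted p = 0.141), and it was 0.12 with median ratio scaling. The other members kept stood at 0.65 for Zrsr1, 0.60 for Impact, 0.08 for Igf2 and -0.55 for Peg3. Of the 6 members kept, 5 had a higher mean log2(FPKM + 1) in mKO, with a median of 0.62 against 0.74 for all genes. Mcts1, the X-linked relative of Mcts2, was at 1.32 (SE 0.58, limma adjusted p = 0.119) and Commd1 rose by 1.97 (SE 0.61, limma adjusted p = 0.041).

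In other lists at E4.25, Dppa3 rose by 4.32 (SE 0.73, limma adjusted p = 0.00365), the only one of 10 imprint maintenance genes kept to pass. Of 14 maternally expressed or partner genes, Grb10, a growth-restraining adaptor (1.28), and Commd1 passed, both higher. Of 6 genes of the Igf2 pathway, 1 passed, Igf2bp3 (1.51). Over all 9550 genes kept the share was 14.6%, with 1370 higher and 24 lower, so calls of this kind were common. Trophectoderm markers, 6 genes, summed to 35.2 to 360 FPKM in WT and 283 to 1031 in mKO with none at 0, and primitive endoderm markers, 5 genes, to 4.91 to 29.6 and 40.8 to 54.6. Among markers of inner cell mass and epiblast, Pou5f1 (2.98, limma adjusted p = 0.00499) and Tdgf1 (2.27, limma adjusted p = 0.0306) passed, both higher. No other marker of that list passed. The part of cell makeup and of Rn45s in these values was not tested.

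**Figure D5:**
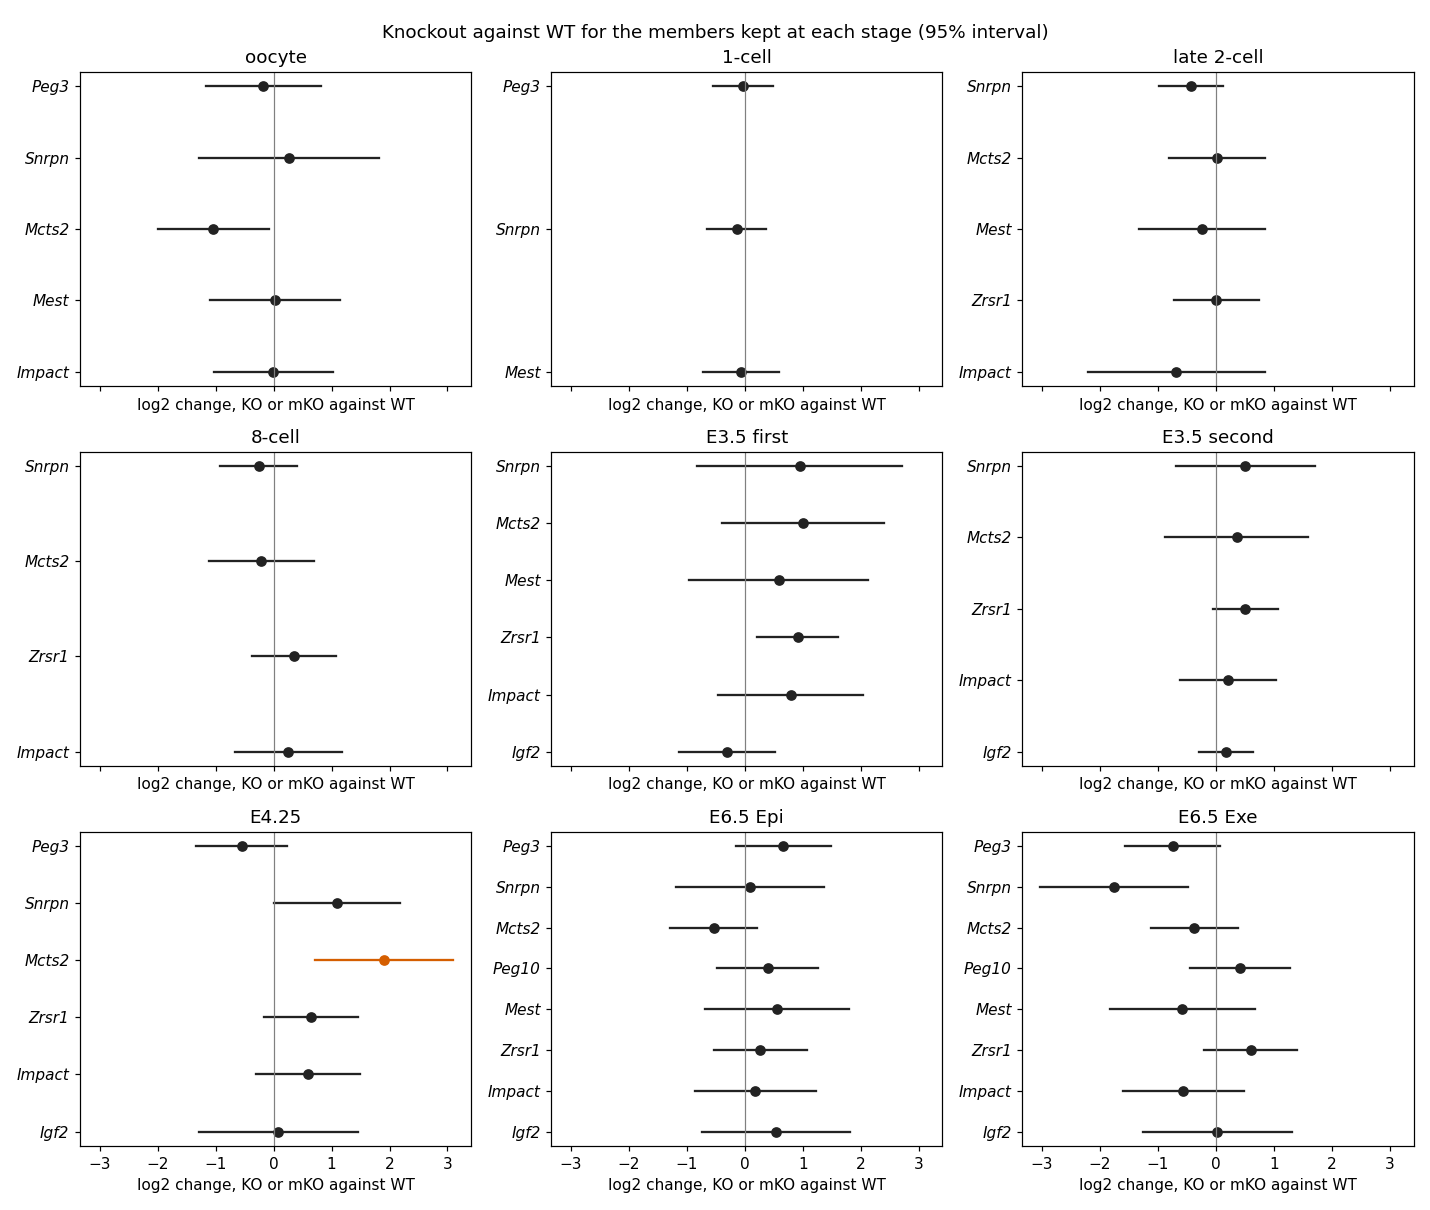
Log2 change of KO or mKO against WT (x axis, 95% interval of the limma fit) for the members kept at each stage, 1 panel per stage. Only Mcts2 at E4.25, in orange, passes an adjusted p of 0.05.

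No member was called in oocytes or up to E3.5. In oocytes 0.0102% of 9818 genes passed for KO against WT, 0% for Het against WT and 0.0102% for KO against Het. Oocyte libraries differed widely within genotypes, with 7316 to 9801 genes at 1 FPKM or more over all. At an unadjusted p under 0.05 (limma), only 0.112% of genes stood apart in KO against WT, so this fit could miss differences. Of 5 members kept, 2 had a higher and 3 a lower mean log2(FPKM + 1) in KO, and Mest, at 0.03, was higher only on that scale. The 3 lower ones, Mcts2, Peg3 and Impact, were at most at 0.404, 0.932 and 0.773 FPKM in KO. They met the filter through WT and Het libraries alone, so their direction is not independent of the filter. Mcts2 was at 1.29 and 1.89 FPKM for WT, 0 and 1.10 for Het and 0, 0.401 and 0.404 in KO, so WT lay above both (KO -1.04, SE 0.48, limma adjusted p = 1).

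In 1-cell embryos 0.0116% of 8604 genes passed for mKO against WT, 0% for mHet against WT and 0.0116% for mKO against mHet. The 3 members kept stood at -0.14 (Snrpn), -0.06 (Mest) and -0.03 (Peg3) in mKO. Their 95% intervals lay within -0.71 and 0.59.

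In late 2-cell embryos 0.00969% of 10322 genes passed for mKO against WT, 0% for mHet against WT and 0.0872% for mKO against mHet. Snrpn was at 20.7 and 21.5 FPKM for WT, 31.1 and 24.2 for mHet and 14.8 and 16.1 in mKO, so the genotypes did not overlap. The mKO value differed by -0.43 from WT (SE 0.24, limma adjusted p = 0.766) and by -0.79 from mHet (SE 0.24, limma adjusted p = 0.345). Impact varied as much within as between genotypes, with 5.18 and 1.74 for WT, 0.891 and 7.42 for mHet and 1.49 and 1.63 in mKO. At the 8-cell stage 0.012% of 8319 genes passed for mKO against WT, and the 4 members kept stood between -0.26 for Snrpn and 0.35 for Zrsr1. Zrsr1 was at 0.528 and 0.859 FPKM in WT, 1.30 in mHet and 0.704 to 1.54 in mKO. It met the filter through mutant libraries alone, so its direction is not independent of the filter.

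Among E3.5 embryos of the first table, 0.0407% of 9834 genes passed for mKO against WT, 0% for mHet against WT and 0.0407% for mKO against mHet. Y-linked transcripts (4 genes) summed to 43.5 to 84.7 FPKM in all WT and mHet libraries and to at most 0.151 in mKO, so genotype and sex cannot be told apart for mKO. Snrpn was at 25.2 and 66.1 FPKM for WT, 124 and 145 for mHet and 47.1 and 135 in mKO. Impact was at 4.58 and 10.4 for WT, 20.0 and 24.7 for mHet and 9.09 and 17.9 in mKO. For both, mHet lay above WT and mKO overlapped WT (mHet against WT 1.69 and 1.54, limma adjusted p = 0.502 for each), while the median gene stood at 0.43 in mHet.

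Igf2 in that table was lower in mHet, with 3.70 and 3.38 FPKM for WT, 0.685 and 0.668 for mHet and 4.07 and 1.65 in mKO (mHet -1.44, SE 0.36, limma adjusted p = 0.502). Mest was at 0.0494 and 0.538 for WT, 1.01 and 6.39 for mHet and 0.0657 and 2.41 in mKO, which overlapped WT (mHet 1.60, SE 0.68, limma adjusted p = 0.502). Mest met the filter through mutant libraries alone, so its higher mutant means are not independent of the filter. Zrsr1 stood at 1.69 and 0.916 in WT and 3.34 and 3.22 in mKO (log2 change 0.91, SE 0.31, limma adjusted p = 0.674). WT replicate 1 had 21.0% Rn45s and the other 5 libraries 2.13 to 9.12%. Without WT replicate 2, which leaves that library alone as WT, Snrpn (2.37, adjusted p = 0.039), Impact (2.06, adjusted p = 0.0334) and Igf2 (-1.49, adjusted p = 0.0416) passed the limma test for mHet, among 1824 genes in all. Without WT replicate 1 instead, Snrpn stood at 1.01, Impact at 1.02 and Igf2 at -1.39, and none passed (limma adjusted p = 1, 1 and 0.763). Once Rn45s level entered the model, Snrpn stood at 0.72 and Impact at 0.88 (limma adjusted p = 0.999 and 0.951).

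The second E3.5 table, with 5 libraries a group, had no member whose genotypes were apart. Here 0.0539% of 9273 genes passed for mKO against WT, 0% for mHet against WT and 0.0108% for mKO against mHet. Snrpn ran from 9.60 to 31.1 FPKM in WT (median 14.5), 7.41 to 47.6 in mHet (20.6) and 6.95 to 69.8 in mKO (19.9), and the genotypes overlapped throughout. All 5 members kept had a higher mean log2(FPKM + 1) in both mutants, with a median of 0.36 for mKO against -0.10 for all genes and 0.34 for mHet against 0.14, and none had an unadjusted p under 0.05. Igf2, 1 of the 5, reached 1 FPKM in mHet libraries only (at most 0.571 in WT and 0.925 in mKO). It was thus kept through the group where its mean was highest. The share of all genes with a higher mean was not counted. Zrsr1 came nearest in mKO (0.51, SE 0.27, 95% interval -0.05 to 1.07, limma adjusted p = 0.941). Within each genotype the library named replicate 7, with 11.3, 13.1 and 9.19% Rn45s, held the most Snrpn, while mKO replicate 4 with 69.5% held the least of its group for Snrpn, Mcts2, Zrsr1 and Impact. The part of Rn45s in these values was not tested.

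For the genes of other lists, 0 passed in the 23 comparisons other than E4.25 and the tissue comparison, whether other paternally expressed genes, maternally expressed or partner genes, H3K27me3-imprinted genes, imprint maintenance genes, relatives of the members or the Igf2 pathway. At an unadjusted p under 0.05, 3 of 10 other paternally expressed genes stood apart in extraembryonic mKO, and 2 of 4 in late 2-cell mKO (limma), where the shares over all genes were 7.74% and 7.56%. Snurf, one of the 3, shares its transcript with Snrpn and is no separate measurement.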

How the data were processed

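Smart-seq2 libraries of polyadenylated RNA were sequenced on DNBSEQ-T7, per the labels' protocols. The authors deposited FPKM, 1 table per stage (E3.5: 2, E6.5: both tissues in 1). The submitters' processing notes list HISAT2 2.2.1, HTSeq 0.6.0 and Trim Galore 0.4.2, with the builds mm9 and hg19. Which tool made the FPKM, which annotation it used and whether strand was kept is not given in the sources used.

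A gene was kept where 2 or more libraries of its table reached 1 FPKM, which drops genes low everywhere. Values were taken as log2(FPKM + 1), so a log2 change understates that of low genes. Each table was fitted alone with limma 3.58.1 (R 4.3.3, lmFit, eBayes with trend) on group means, with two-sided p-values adjusted by Benjamini and Hochberg over all genes kept and a threshold of 0.05, in 25 comparisons. The fit was tested on simulated data. Gene names turned into dates, 25 to 27 in 3 tables, were dropped. Epiblast columns were matched to genotypes but not to replicate numbers.

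All 10 members were named, and of other lists up to 4 genes past the threshold per comparison, by p, besides partners of the members' domains. The members and lists were chosen with earlier results of these data known. Alternatives changed 1 choice at a time: pseudocount, filter, scaling, Rn45s removed, 2 groups alone, a library left out, replicate block, library order and sex terms, and, chosen after seeing the data, the Rn45s level as a term. Promoter windows are from RefSeq (GRCm38.p6) and exon structure from GENCODE, a build other than that of the deposited values, and no coordinates were carried between builds.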

Additional observations from a re-analysis of the deposited data

Results flagged for a closer look

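Among 47 member groups of 4 or 5 libraries, 6 held a library far from the others. The rule flags about 1 group in 20 by chance only where values follow a normal distribution. FPKM near 0 do not, so the count of 6 was not set against chance. These were Snrpn in E3.5 WT replicate 7 of the second table (31.1 FPKM), Peg10 in E3.5 mHet replicate 6 (0.627), Zrsr1 in E3.5 mHet replicate 7 (5.07), Plagl1 in E4.25 WT replicate 3 (3.23) and mKO replicate 4 (0.0213), and Dlk1 in E4.25 WT replicate 4 (0.0886). The Peg10 and Dlk1 values and the Plagl1 value in mKO are below 1 FPKM.

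Among members kept by the filter, for Snrpn and Mcts2 every KO or mKO library lay on 1 side of every WT library at some stage and on the other side at another stage. The difference between stages was not tested, since the stages lie in tables normalized separately. Snrpn was higher in mKO at E4.25 (log2 change 1.09) and lower at the late 2-cell stage (-0.43), the 8-cell stage (-0.26) and in extraembryonic ectoderm (-1.76). Mcts2 was higher in the first E3.5 table (1.01) and lower in oocytes (-1.04), epiblast (-0.53) and extraembryonic ectoderm (-0.38). None of these 8 changes passed the limma test. How many other genes lay apart in these ways was not counted, here or for the groups described as apart in the results. Groups of 2 libraries can lie apart by chance. Peg3 and Mest also lay on opposite sides in epiblast and extraembryonic ectoderm, where the difference was tested and did not pass. Mest at the 8-cell stage and Peg10, Plagl1 and Zrsr1 at 1 stage or more also lay on the other side, at levels below the filter, and were not looked at here.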

How the results depend on the processing

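Of 323 alternative counts of members called over 25 comparisons, 307 equalled the reported count or lay within 1.5 times of it, and 21 comparisons did not change under any alternative run. At E4.25 the count of 1 fell to 0 with a pseudocount of 0.1, without the filter, with median ratio scaling and with Rn45s removed, where the log2 change of Mcts2 was 2.72, 1.91, 1.26 and 1.90 (limma adjusted p = 0.0561, 0.143, 0.239 and 0.0736). With a library left out the count was 0 to 1, the change 1.61 to 2.36. It was 0 when any of WT 2, 3, 4 and mKO 1, 2, 4 was omitted, and the cause was not tested. Over alternatives all genes called there ran from 30 to 2121.

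Between the E6.5 tissues the count of 5 was 3 to 6 with a library left out and 3 with a term for Rn45s level. Igf2, Peg10 and Snrpn passed in all 18 alternatives, Peg3 and Impact in 10 each. Besides the libraries named in the results, Impact lost its call without the filter (limma adjusted p = 0.0536) and in WT alone (0.194), and with the Rn45s term, chosen after seeing the data, Peg3 and Impact stood at 0.0993 and 0.413. For mHet against WT the count of 0 became 0 to 3 when single libraries were omitted, both in extraembryonic ectoderm and in the first E3.5 table. Plagl1, highest at E4.25 in WT (0.838 FPKM), stood at 2.65 with Rn45s removed. Both means rest on WT replicate 3, and by the median the late 2-cell stage is highest.

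With the replicate number as a block, the count of members called stayed 1 at E4.25 and 0 in the other comparisons that could be blocked, and Mcts2 at E4.25 had a limma adjusted p of 0.0122. The numbers were not shown to pair samples: same-numbered deviations correlated by 0.51 to 0.56 at the 1-cell stage, 0.21 to 0.26 at the late 2-cell stage and 0.16 to 0.57 in the smaller E3.5 table, each with only 2 numbers, but by -0.41 to 0.70 in the larger E3.5 table. In oocytes the range was -0.33 to 0.71 and at the 8-cell stage -0.17 to 0.30. It was 0.06 to 0.14 at E4.25 and -0.16 to -0.005 in extraembryonic ectoderm. The block moved all genes called from 9 to 99 for late 2-cell mKO against mHet and from 1 to 123 at the 8-cell stage. The epiblast columns carry no number that matches the labels and could not be blocked. Depth is unknown, so no detection limit can be given.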
